A study of Homo sapiens with 6 samples.

Results

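The genes described here are the cell cycle cyclins CCND1, CCND2, CCND3, CCNE1, CCNE2, CCNA2, CCNB1 and CCNB2, with the kinases CDK4 and CDK6. They were taken by gene symbol from the deposited count and TPM tables, TPM being a level per transcript length and library size. All 10 of 10 were found among the 23686 genes listed, and 10 of 10 were among the 14481 genes with enough reads to test (at least 10 reads in at least 2 libraries). The study sequenced RNA from A427 and HCC15, established human non-small cell lung carcinoma lines labelled WT, to find genes associated with LGR6, a receptor for R-spondins. Each line gave 1 library with the control siRNA, labelled Tax, 1 with LGR6 siRNA 2 and 1 with LGR6 siRNA 4. All 6 were collected 48 h after transfection and grown in RPMI medium with 5% fetal bovine serum. The labels do not give the siRNA sequences and do not say whether libraries came from separate cultures.

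Cyclins are the regulatory subunits of cyclin-dependent kinases, and their levels set which kinase is active in each phase of the cell cycle. The D-type cyclins bind CDK4 and CDK6 and start the phosphorylation of the retinoblastoma protein RB1, which frees E2F transcription factors. E2F target genes include the E-type cyclins, which bind CDK2 at entry into S phase, and CCNA2, which acts in S phase and G2. The B-type cyclins bind CDK1 and drive mitosis. In lung cancer the D-type cyclins and their kinases are known as points where growth signals reach the cycle, and CDK4 and CDK6 are drug targets.

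Library totals ranged from 25546419 to 28987901 reads. No pair of libraries shared both line and siRNA. Per-library values therefore have no replicate error. The p-values of the siRNA comparisons weigh each change against how unequally the siRNAs acted in A427 and HCC15. This spread is not each gene's own alone, as edgeR shares it in part over all genes. The target LGR6 had 257 reads in the HCC15 control, 39 with siRNA 2 and 77 with siRNA 4, but in A427 only 5 in the control and 0 with either siRNA. In A427, where a count of 0 allows 0.117 CPM (reads scaled to library size) with siRNA 2 and 0.115 CPM with siRNA 4, silencing cannot be judged well at this depth. Epithelial markers (6 genes) summed to 989 to 1260 TPM in A427 and to 4230 to 9380 TPM in HCC15. In A427, KRT7 was at 0 in the control library and at most 0.2 TPM with siRNA. KRT19 was at most 0.38 TPM and CDH1 at most 3.52 TPM there. The fibroblast list summed to at most 11 TPM, mostly COL1A1, with DCN at 0 in all 6 libraries. The endothelial list summed to at most 0.25 TPM. The haematopoietic list, with CD3E at 0 throughout, summed to 2.34 to 32.5 TPM. Most of that was CD68, at 23.8, 31.3 and 24.5 TPM in A427 (control, siRNA 2, siRNA 4). PTPRC had 106, 72 and 100 reads in the same A427 libraries.

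CCND1 was the most abundant of the 10 genes in TPM in every A427 library and in the HCC15 control, and CCNB1 was the most abundant in both HCC15 libraries with LGR6 siRNA. At the other end, CCND2 had the lowest TPM in 5 libraries, and CCNE2 in the A427 library with siRNA 4. Among all listed genes, 0.73% to 1.94% had a higher TPM than CCND1, against 45.8% to 59.4% for CCND2. CCNB1, CDK4, CDK6, CCNA2 and CCNB2 each had at most 13.8% of genes above them in every library. The plot of TPM by gene and library shows the spread over these genes.

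**Figure D1:**
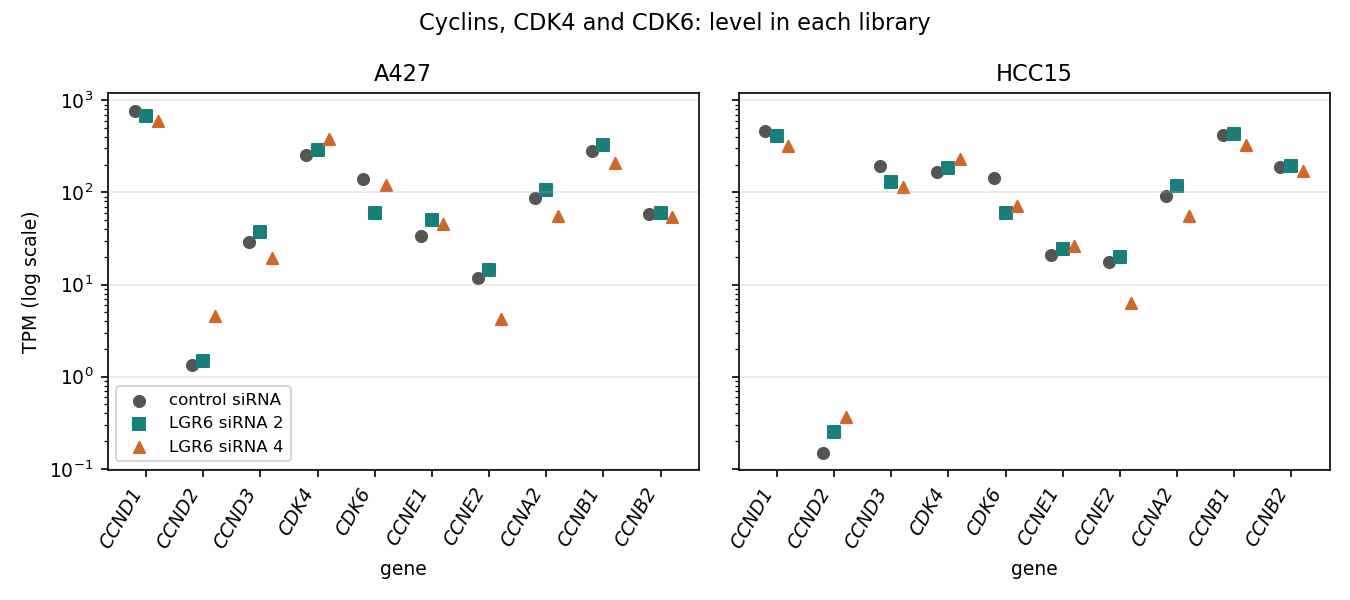
Level of each of the 10 genes in each library, in TPM on a log scale, with A427 on the left and HCC15 on the right; each point is 1 library and the marker shape gives the siRNA. CCND1 lies at the top in A427 (592 to 773 TPM), and CCND2 falls to 0.15 TPM in the HCC15 control.

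The lines differed in the cyclins they expressed. With both lines in 1 fit of line plus siRNA, 8 of the 10 genes differed between HCC15 and A427, 4 higher and 4 lower, while 76.5% of all tested genes differed (37.2% higher and 39.3% lower). The share in this family was thus near the background and says nothing particular of it. In this comparison the libraries of a line, each with another siRNA, stand in for replicates. With siRNA 2 against control, 1 of the 10 passed the test, against a background of 7.62% (2.96% higher and 4.66% lower). With siRNA 4 against control, 5 of 10 passed (2 higher and 3 lower), against 12.5% of all genes (4.58% higher and 7.95% lower). With siRNA 4 against siRNA 2 again 5 of 10 passed (3 higher and 2 lower), against 16.5% (7.7% higher and 8.84% lower). The median log2 fold change of the 10 genes was 0.08 with siRNA 2, -0.38 with siRNA 4 and -0.12 for siRNA 4 against siRNA 2, beside medians of -0.014, -0.0052 and 0.0041 over all tested genes. The siRNA comparisons share the control libraries or the siRNA libraries and are not independent of each other. Tests throughout are edgeR quasi-likelihood tests with p adjusted over all 14481 genes, and a log2 fold change is a difference of normalised counts on the log2 scale. Leaving out the HCC15 control left few calls over all genes for either siRNA against control. A call lost in that way is therefore not particular to its gene.

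**Figure D2:**
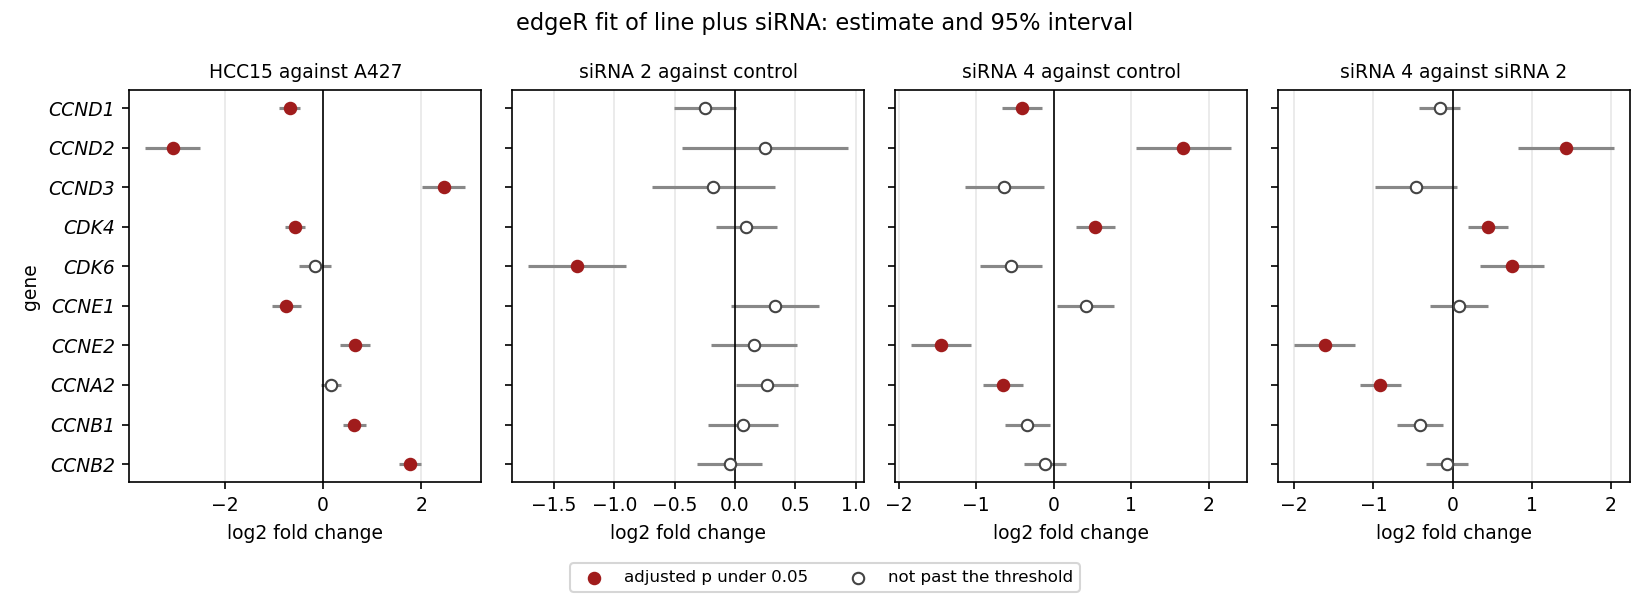
Log2 fold change (horizontal axis) of each gene (vertical axis) in 4 comparisons from the fit of line plus siRNA; points are estimates, bars are 95% intervals and filled points have an adjusted p under 0.05. CDK6 is the single filled point for siRNA 2 against control, while CCND1, CCND2, CDK4, CCNE2 and CCNA2 are filled for siRNA 4.

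Among the D-type cyclins, CCND1 was lower with each LGR6 siRNA in each line, CCND2 rose with siRNA 4, and CCND3 was the form that HCC15 held in excess over A427. CCND1, cyclin D1, measured 773, 673 and 592 TPM in A427 (control, siRNA 2, siRNA 4) and 460.2, 408 and 323 TPM in HCC15. Every A427 library was above every HCC15 library, and in each line the control was highest and siRNA 4 lowest. CCND1 was 1.61-fold lower in HCC15 (log2 fold change -0.68, SE 0.092, adjusted p = 0.000157). As a share of the control in normalised reads, CCND1 stood at 85.5% with siRNA 2 in A427 (95% counting interval 84.3 to 86.7), at 82.7% with siRNA 2 in HCC15, at 76.6% with siRNA 4 in A427 and at 73.5% with siRNA 4 in HCC15. These counting intervals cover reads only, not differences between cultures. The log2 fold change was -0.41 with siRNA 4 (SE 0.112, adjusted p = 0.0475) and -0.25 with siRNA 2 (SE 0.112, adjusted p = 0.215, 95% interval -0.51 to 0.0063). The siRNA 4 call was close to the threshold: adjusted p was 0.0546 with DESeq2 size factors, 0.0532 without the filter on low counts, and 0.338, 0.142, 0.46 and 0.276 without the A427 control, A427 siRNA 4, HCC15 control and HCC15 siRNA 4 library. Between the siRNAs CCND1 differed by -0.16 on the log2 scale (95% interval -0.42 to 0.094, adjusted p = 0.353).

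CCND2, cyclin D2, was the scarce member of the D-type cyclins. In A427 it had 119 reads in the control, 117 with siRNA 2 and 382 with siRNA 4, and in HCC15 the same libraries had 13, 22 and 33. The A427 library with siRNA 4 stood above the other 5, and no HCC15 library reached the lowest A427 count. In TPM this was 1.33, 1.49 and 4.53 in A427 and 0.15, 0.25 and 0.37 in HCC15. CCND2 was 8.38-fold lower in HCC15 (log2 fold change -3.07, SE 0.244, adjusted p = 6.52e-06). It rose 3.19-fold with siRNA 4 against control (log2 fold change 1.68, SE 0.268, adjusted p = 0.00724), and its log2 fold change with siRNA 2 was 0.25 (SE 0.301, adjusted p = 0.667). Between siRNA 4 and siRNA 2 it differed by 1.43 (SE 0.265, adjusted p = 0.0106). These calls depended on the A427 libraries and on the scale: without A427 siRNA 4 the siRNA 4 value was 1.14 (adjusted p = 0.167), without the A427 control or HCC15 control adjusted p was 0.227 or 0.0808, and on TPM with a pseudocount of 1 it was 0.156. For siRNA 4 against siRNA 2, leaving out A427 siRNA 2 or A427 siRNA 4 gave 0.83 or 0.90 (adjusted p = 0.273 and 0.235), and on TPM with a pseudocount of 1 adjusted p was 0.183.

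CCND3, cyclin D3, measured 29.3, 37.0 and 19.3 TPM in A427 and 192, 130.1 and 115 TPM in HCC15 (control, siRNA 2, siRNA 4 in each). All 3 HCC15 libraries lay above all 3 A427 libraries. CCND3 was 5.51-fold higher in HCC15 (log2 fold change 2.46, SE 0.19, adjusted p = 5.4e-06). Relative to control, siRNA 2 left CCND3 at 124% in A427 (95% counting interval 112 to 137) and at 63.5% in HCC15 (60.7 to 66.3), on opposite sides of the control. The siRNA 4 libraries stood at 65.2% (A427) and 63.2% (HCC15). Neither siRNA passed the test over both lines: the log2 fold change was -0.18 with siRNA 2 (SE 0.223, adjusted p = 0.674) and -0.64 with siRNA 4 (SE 0.222, adjusted p = 0.0995). Without the A427 siRNA 2 or the HCC15 siRNA 2 library, the siRNA 4 value had an adjusted p of 0.0135 or 0.0145, and without HCC15 siRNA 2 the difference of siRNA 4 from siRNA 2 passed as well (log2 fold change -0.93, adjusted p = 0.0238).

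Added together, the D-type cyclins summed to 803, 711 and 616 TPM in A427 and to 652, 539 and 439 TPM in HCC15 (control, siRNA 2, siRNA 4). Cyclin D1 made up 94.6% to 96.2% of the sum in A427 and 70.6% to 75.8% in HCC15, where CCND3 supplied 24.1% to 29.4%. In both lines the sum was highest in the control library and lowest with siRNA 4. CCND2 made up at most 0.736% of the sum in any library. In HCC15 both CCND1 and CCND3 were below control with each LGR6 siRNA, and with siRNA 2 CCND3 took a smaller share of the sum (24.1%) than in the control (29.4%).

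**Figure D3:**
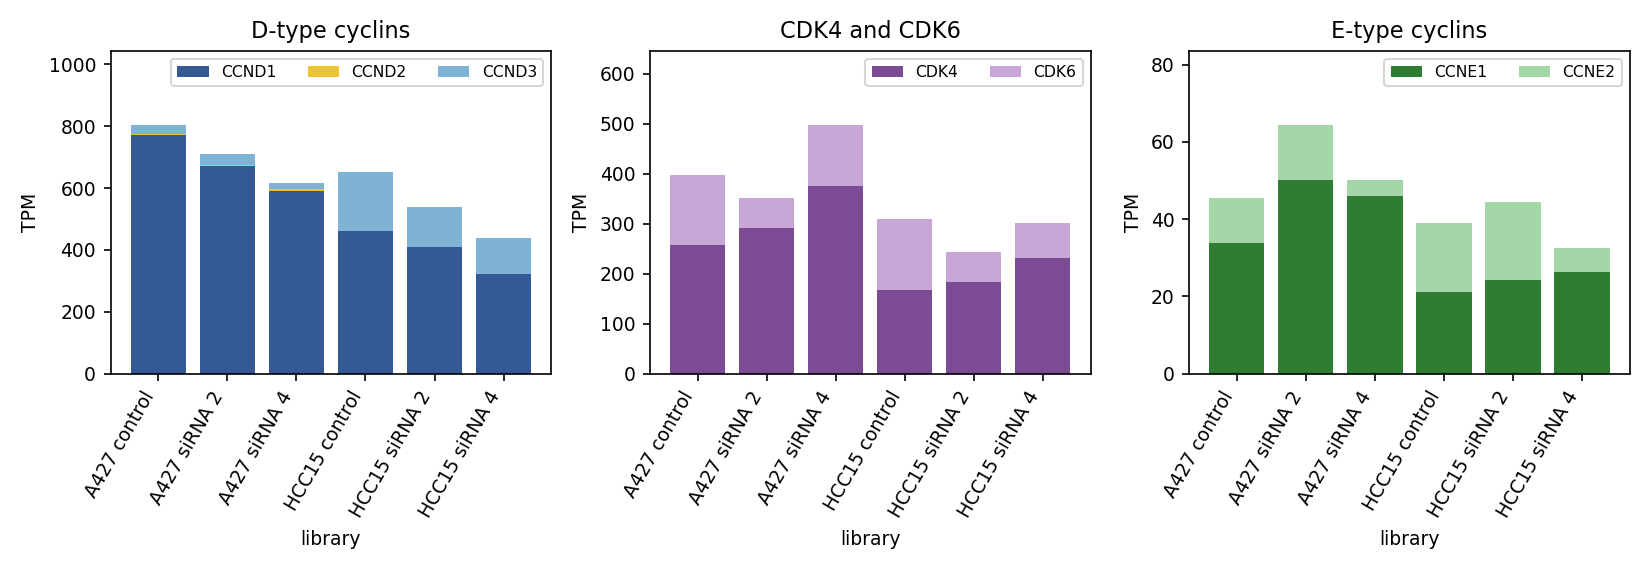
Stacked TPM of the D-type cyclins, of CDK4 and CDK6, and of the E-type cyclins in each of the 6 libraries; each bar is 1 library and colours give the genes. The D-type sum is 803 TPM in the control and 616 TPM with siRNA 4 in A427, and 652 and 439 TPM in HCC15, and CCND3 is visible mainly in HCC15.

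The kinases that D-type cyclins bind did not move together: CDK6 fell with siRNA 2 in both lines, while CDK4 rose with siRNA 4 in both lines. CDK6 had 22583 reads in the A427 control, 8596 with siRNA 2 and 18567 with siRNA 4, or 139.55, 60.2 and 121 TPM. HCC15 gave 22272, 9350 and 11365 reads in that order, or 143, 59.3 and 71.2 TPM. The controls were highest in both lines and the siRNA 2 libraries lowest. With siRNA 2, CDK6 stood at 42.4% of control in A427 (95% counting interval 41.3 to 43.5) and at 38.7% in HCC15 (37.8 to 39.7). It fell 2.48-fold over both lines (log2 fold change -1.31, SE 0.177, 95% interval -1.71 to -0.90, adjusted p = 0.00722). Without the HCC15 control library the value was -1.08 and did not pass, in a fit where few genes of any kind passed.

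With siRNA 4 the lines were further apart in CDK6. The share of control was 87.1% in A427 (85.4 to 88.8) and 52.3% in HCC15 (51.1 to 53.5), so both libraries were below control by unequal amounts. The log2 fold change with siRNA 4 was -0.56 (SE 0.175, adjusted p = 0.0751). DESeq2 gave an adjusted p of 0.0373 for the same comparison, and without the A427 siRNA 4 library the value was -0.90 (adjusted p = 0.012). CDK6 was 1.68-fold higher with siRNA 4 than with siRNA 2 (log2 fold change 0.75, SE 0.176, adjusted p = 0.0238). That difference did not pass on TPM (adjusted p = 0.0739 with a pseudocount of 1) or without A427 siRNA 2 (0.115), HCC15 siRNA 2 (0.0769) or A427 siRNA 4 (log2 fold change 0.40, adjusted p = 0.131). Between the lines CDK6 differed by -0.16 (95% interval -0.48 to 0.17, adjusted p = 0.34), and the sign turned without either siRNA 4 library.

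CDK4 measured 258, 291 and 375 TPM in A427 and 166, 183 and 231 TPM in HCC15 (control, siRNA 2, siRNA 4). The siRNA 4 library was highest in each line, and every A427 library lay above every HCC15 library. CDK4 was 1.49-fold lower in HCC15 (log2 fold change -0.57, SE 0.0904, adjusted p = 0.00042). Its normalised reads stood at 145% of control with siRNA 4 in A427 (141 to 150) and at 145% in HCC15 (139 to 151), a rise of 1.45-fold over both lines (log2 fold change 0.54, SE 0.111, adjusted p = 0.0181). With siRNA 2 the log2 fold change was 0.09 (SE 0.11, 95% interval -0.16 to 0.35, adjusted p = 0.659). The siRNA 4 call did not pass without the A427 control (adjusted p = 0.205), the HCC15 control (0.216) or HCC15 siRNA 4 (0.122). CDK4 was 1.36-fold higher with siRNA 4 than with siRNA 2 (log2 fold change 0.45, SE 0.11, adjusted p = 0.0294), a call that did not pass without any 1 of the 6 libraries (adjusted p from 0.0511 to 0.168).

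As a share of the pair's TPM, CDK6 made up 35.1% in the A427 control, 17.1% with siRNA 2 and 24.4% with siRNA 4. The matching HCC15 shares were 46.2%, 24.5% and 23.6%. CDK6 thus held its largest share in the control library of both lines. The pair's summed TPM was 397, 351 and 497 in A427 and 309, 242 and 302 in HCC15, lowest with siRNA 2 in both.

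The E-type cyclins went separate ways, with CCNE2 lower with siRNA 4 in both lines and CCNE1 above control in all 4 libraries with LGR6 siRNA without passing the test. CCNE2, cyclin E2, had 418 reads in the A427 control, 447 with siRNA 2 and 141 with siRNA 4, and 611, 698 and 221 reads in the matching HCC15 libraries. The siRNA 4 libraries were lowest in both lines and below every other library. In TPM the levels were 11.7, 14.25 and 4.20 in A427 and 17.8, 20.1 and 6.30 in HCC15. With siRNA 4, CCNE2 stood at 35.7% of control in A427 (95% counting interval 29.3 to 43.3) and 37.1% in HCC15 (31.6 to 43.3). It fell 2.74-fold with siRNA 4 against control (log2 fold change -1.45, SE 0.169, adjusted p = 0.00204). It was 3.06-fold lower with siRNA 4 than with siRNA 2 (log2 fold change -1.61, SE 0.168, adjusted p = 0.00129), and its log2 fold change with siRNA 2 was 0.16 (95% interval -0.19 to 0.52, adjusted p = 0.574). The difference between the siRNAs passed with each of the 6 libraries left out (-1.72 to -1.52, adjusted p from 0.00462 to 0.0104). The call against control did not pass without the HCC15 control (-1.41, adjusted p = 0.0672). CCNE2 was 1.57-fold higher in HCC15 (log2 fold change 0.65, SE 0.133, adjusted p = 0.00195), which did not pass in a fit without the siRNA (adjusted p = 0.303).

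CCNE1, cyclin E1, measured 33.8, 50.1 and 45.97 TPM in A427 and 21.1, 24.3 and 26.25 TPM in HCC15 (control, siRNA 2, siRNA 4). The controls were the lowest library of each line, and the lines did not overlap. CCNE1 was 1.68-fold lower in HCC15 (log2 fold change -0.75, SE 0.13, adjusted p = 0.000744). The share of control ranged from 107% (siRNA 2 in HCC15, counting interval 94.9 to 121) to 145% (siRNA 2 in A427, 133 to 159). The log2 fold change was 0.33 with siRNA 2 (SE 0.159, adjusted p = 0.245) and 0.41 with siRNA 4 (SE 0.159, adjusted p = 0.131). CCNE2 made up 25.8%, 22.2% and 8.37% of the E-type TPM in A427 and 45.7%, 45.3% and 19.4% in HCC15, so its share was smallest with siRNA 4 in both lines.

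CCNA2 and the B-type cyclins are the members of S phase, G2 and mitosis. The bases just before their transcription start sites carry CCAAT boxes, the binding sites of NF-Y, and are shown because these genes are a known example of late cell cycle promoters, while their responses here were unequal. The 150 bases before the start of each, from RefSeq on GRCh38.p14 and read 5′ to 3′ on the gene's strand, are given with the motifs in capitals: the NF-Y box CCAAT, which reads ATTGG where it lies on the opposite strand, the cyclic AMP response element TGACGTCA, and TTTGAA, known as the cell cycle genes homology region.
CCNA2 (chr4:121823884-121824033, minus strand): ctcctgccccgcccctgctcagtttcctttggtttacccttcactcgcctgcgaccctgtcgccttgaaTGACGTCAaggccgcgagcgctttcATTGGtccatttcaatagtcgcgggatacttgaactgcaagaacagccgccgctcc
CCNB1 (chr5:69167000-69167149, plus strand): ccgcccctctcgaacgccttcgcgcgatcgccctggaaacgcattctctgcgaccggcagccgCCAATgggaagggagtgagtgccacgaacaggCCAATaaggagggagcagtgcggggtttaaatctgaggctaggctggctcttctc
CCNB2 (chr15:59104996-59105145, plus strand): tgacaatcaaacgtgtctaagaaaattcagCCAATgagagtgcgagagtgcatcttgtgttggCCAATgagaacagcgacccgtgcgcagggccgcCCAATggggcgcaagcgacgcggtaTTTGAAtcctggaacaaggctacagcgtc

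Both strands were searched, and no match overlapped another motif. CCAAT began 56 bases before the start in CCNA2 (on the other strand), 55 and 87 in CCNB1, and 54, 87 and 120 in CCNB2. TGACGTCA began 81 bases before the start of CCNA2, and TTTGAA 29 bases before that of CCNB2. Only this spelling of the cell cycle genes homology region was searched, so its absence from CCNA2 and CCNB1 does not show that they lack the region. Of the 35116 RefSeq windows of this length, 23.5% held CCAAT, 7.33% TTTGAA and 1.4% TGACGTCA. The E2F strings TTTCGCGC, TTTGGCGC and TTTCCCGC, held by 0.302%, 0.359% and 0.869% of windows, had no match in these 3. The table held start sites of 7 of the 10 genes, and CCAAT was not particular to the late cyclins: CCND3 held it before 2 of its 3 start sites, beginning 136 bases upstream of one and 64 bases upstream of the other (on the opposite strand). The windows of CCNE1, CDK4 and CDK6 held no match to any motif searched, which says only that these letters are not there. A match is a run of letters and not a measured binding site.

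CCNA2, cyclin A2, was lower with siRNA 4 in both lines. It measured 87.4, 108 and 55.6 TPM in A427 (control, siRNA 2, siRNA 4) and 91.7, 118 and 55.85 TPM in HCC15. The order of the libraries was the same in both lines, with siRNA 2 highest and siRNA 4 lowest, and the lines overlapped throughout. In normalised reads siRNA 4 left 63.6% of control in A427 (95% counting interval 60.1 to 67.3) and 63.8% in HCC15 (60.3 to 67.5), and siRNA 2 stood at 121% in A427 (115 to 127) and 119% in HCC15 (114 to 125). CCNA2 fell 1.57-fold with siRNA 4 against control (log2 fold change -0.65, SE 0.113, adjusted p = 0.00954) and was 1.88-fold lower with siRNA 4 than with siRNA 2 (log2 fold change -0.91, SE 0.113, adjusted p = 0.00227). With siRNA 2 the log2 fold change was 0.26 (SE 0.112, adjusted p = 0.192), and between the lines it was 0.16 (95% interval -0.045 to 0.37, adjusted p = 0.131). The difference between the siRNAs passed with each of the 6 libraries left out (adjusted p from 0.00927 to 0.0203). The call against control did not pass without the A427 control (adjusted p = 0.115), the HCC15 control (0.164) or HCC15 siRNA 4 (0.0701).

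CCNB1, cyclin B1, measured 281, 325 and 211 TPM in A427 and 418, 432 and 331 TPM in HCC15 (control, siRNA 2, siRNA 4). The siRNA 4 library was lowest in each line, and the lowest HCC15 library was just above the highest A427 library. CCNB1 was 1.56-fold higher in HCC15 (log2 fold change 0.64, SE 0.104, adjusted p = 0.000508). With siRNA 4 it stood at 74.8% of control in A427 and 83.0% in HCC15, and the log2 fold change of -0.34 did not pass (SE 0.127, adjusted p = 0.119). Against siRNA 2 the siRNA 4 value was -0.41 (SE 0.127, adjusted p = 0.063), where DESeq2 gave 0.0338 and limma on TPM with a pseudocount of 1 gave 0.0175. With siRNA 2 against control it was 0.07 (95% interval -0.22 to 0.36, adjusted p = 0.8).

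CCNB2, cyclin B2, differed between the lines and little between the siRNAs. Its levels were 58.6, 59.6 and 53.5 TPM in A427 and 189.95, 193 and 169.87 TPM in HCC15 (control, siRNA 2, siRNA 4). Every HCC15 library lay well above every A427 library, and within a line the 3 libraries were close. CCNB2 was 3.44-fold higher in HCC15 (log2 fold change 1.78, SE 0.0986, adjusted p = 7.9e-07). The log2 fold change was -0.05 with siRNA 2 (95% interval -0.31 to 0.22, adjusted p = 0.856), -0.12 with siRNA 4 (-0.39 to 0.15, adjusted p = 0.559) and -0.07 between the siRNAs (-0.34 to 0.20, adjusted p = 0.722). CCNB2 supplied 15.5% to 20.2% of the B-type TPM in A427 and 30.8% to 33.9% in HCC15.

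**Figure D4:**
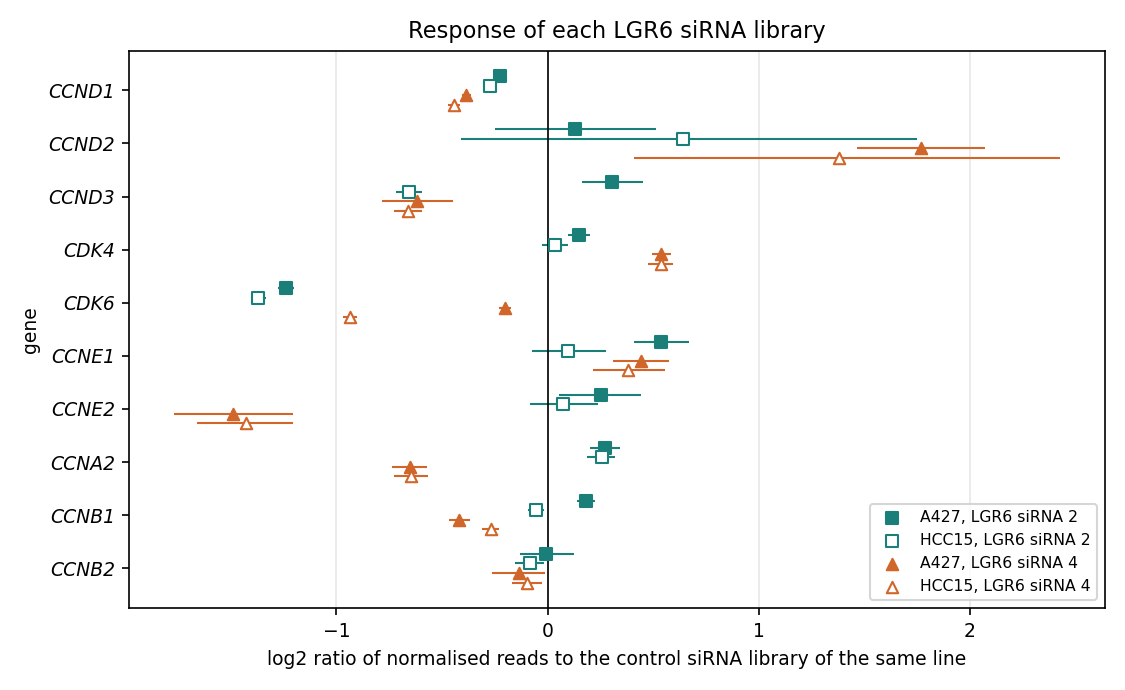
Log2 ratio of normalised reads of each gene to the control library of the same line, for each of the 4 libraries with LGR6 siRNA; points are single libraries and bars are 95% counting intervals. CDK6 with siRNA 2, and CCNE2 and CCNA2 with siRNA 4, lie left of 0 in both lines, and CDK4 with siRNA 4 lies right of 0 in both.

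In bulk RNA, fewer cells in a phase and less RNA per cell cannot be told apart. Epithelial markers were also lower with siRNA 4: all 6 had negative log2 fold changes against control. Against control 3 of 6 fell, beside 12.5% of all genes called (7.95% lower). Against siRNA 2 4 of 6 fell, beside 16.5% called (8.84% lower). The summed TPM of the 6 was 1260, 1230 and 989 in A427 and 7130, 9380 and 4230 in HCC15 (control, siRNA 2, siRNA 4). In A427, KRT7 (0, 1 and 4 reads) and KRT19 (6, 6 and 3) had few reads in those libraries. The part of these markers in the cyclin results was not tested. In GENCODE, genes on the opposite strand overlap CCND1 (LTO1), CCND2 (CCND2-AS1), CCND3, CDK4, CDK6, CCNE2 and CCNA2, another on the same strand overlaps CCND2, and the sources used here do not say whether counting used the strand. INTS8, which overlaps CCNE2, counted 1619, 2377 and 2531 reads in A427 and 1646, 3370 and 3471 in HCC15. It was above control with both siRNAs in each line, while CCNE2 was below control with siRNA 4 only. EXOSC9, which overlaps CCNA2, counted 1322, 1181 and 1084 reads in A427 and 638, 510 and 532 in HCC15. TSPAN31, which overlaps CDK4, had at most 130 reads. The genes that overlap CCND1, CCND2, CCND3 and CDK6 were not matched by symbol in the count table, so their reads are not analysed here.

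With both siRNAs pooled, edgeR made no call. This fit, and that of the difference between the lines, took siRNA 2 and siRNA 4 as repeats of 1 silenced group. Their p-values weigh changes mainly against how far siRNA 2 and siRNA 4 differed within a line. A lack of calls there does not show that silencing had no effect or that the lines responded alike. In a fit of line plus silencing, with both siRNAs as the silenced group, 0 of the 10 genes passed, against 0% of all 14481 genes by edgeR, while 1512 genes had an unadjusted p under 0.05 and DESeq2 called 387 genes, none of them among the 10. CDK6 came closest of the 10 (log2 fold change -0.89, SE 0.306, adjusted p = 0.41). When each siRNA kept its own term and the terms were averaged, 8.96% of all genes passed (3.31% higher and 5.65% lower). Of the 10 genes 2 passed, both lower: CDK6 (log2 fold change -0.93, SE 0.147, adjusted p = 0.0101) and CCNE2 (-0.65, SE 0.137, adjusted p = 0.026). The CCNE2 value averages log2 fold changes of 0.16 with siRNA 2 and -1.45 with siRNA 4. By direction of normalised reads alone, CCND2, CDK4 and CCNE1 were above control in all 4 libraries with LGR6 siRNA. CCND1, CDK6 and CCNB2 were below it in all 4, and the other 4 genes were mixed. Some of these ratios were near the control level. CCNB2 stood at 99.7% with siRNA 2 in A427 (95% counting interval 91.4 to 109), and its TPM was above control with siRNA 2 in both lines. With siRNA 2, intervals also included the control level for CCND2 in both lines and for CDK4 and CCNE1 in HCC15. The ratios share control libraries, and how many of all genes kept 1 direction was not counted. A test of whether the lines responded unequally to silencing called 0 of the 10, against 0% of all genes by edgeR. DESeq2 and limma also called no gene after adjustment. An unadjusted p under 0.05 was found for 78 genes by edgeR and 43 by DESeq2. In limma on TPM it was found for 87 genes with a pseudocount of 1 and 78 with 0.1. For CCND3 the HCC15 response minus that of A427 was -0.58 on the log2 scale (95% interval -2.01 to 0.86, adjusted p = 1), and for CDK6 it was -0.51 (-2.21 to 1.19, adjusted p = 1).

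The other genes of the pathway were read from 7 lists of 71 genes: CDK partners, other cyclins, CDK inhibitors, RB and E2F, mitotic transcription factors with the MuvB complex, cyclin turnover, and CDK phosphorylation. Of the 68 tested, 23 were higher and 25 lower in HCC15 than in A427 (70.6%, beside 76.5% of all genes, with a median log2 fold change of 0.13 beside -0.028). RB1, the substrate of the D-type cyclin kinases, measured 40.4, 34.5 and 12.1 TPM in A427 and 1.29, 1.61 and 2.22 TPM in HCC15 (control, siRNA 2, siRNA 4). It was 14.3-fold lower in HCC15 (log2 fold change -3.84, SE 0.424, adjusted p = 4.75e-05), an average over unequal siRNA groups: without A427 siRNA 4 or HCC15 siRNA 4 the value was -4.63 or -4.60. The lines did not overlap, and the A427 library with siRNA 4 was well below the other A427 libraries, although the siRNA 4 comparison did not pass for RB1 (-0.77, adjusted p = 0.352). CDKN1A, the p21 inhibitor of cyclin kinases, was 3.37-fold lower in HCC15 (log2 fold change -1.75, adjusted p = 1.29e-06). CDKN2C, an inhibitor of CDK4 and CDK6, was 2.83-fold higher (1.499, adjusted p = 1.08e-05). CDKN2A and CDKN2B, which encode further inhibitors of CDK4 and CDK6, had 0 reads in all 6 libraries, where 3 reads would be 0.103 to 0.117 CPM. Of the 7 CDK partners, 2 were higher in HCC15, 1 was lower and 4 did not pass. The higher ones were CDK1, the kinase of the B-type cyclins (2.14-fold, log2 fold change 1.09), and the kinase subunit CKS2 (2.64-fold, 1.40). Of the 6 genes of CDK phosphorylation, 4 were higher and none lower by edgeR, among them the phosphatase CDC25B (3.05-fold, 1.61) and the mitotic kinase PLK1 (3.08-fold, 1.62). The list of mitotic transcription factors with MuvB was split, with 4 of 10 higher and 4 lower. CCNG2, an atypical cyclin linked to cell cycle arrest, was 33.5-fold lower in HCC15 (-5.07, adjusted p = 2.19e-07).

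With siRNA 2, 3 of the 68 pathway genes rose and 5 fell (11.8%, beside 7.62% of all genes, with a median of 0.04 beside -0.014). FOXM1, a transcription factor of mitotic genes, counted 14039, 6737 and 13124 reads in A427 and 10713, 3732 and 8645 in HCC15 (control, siRNA 2, siRNA 4). The siRNA 2 libraries were lowest in each line, and FOXM1 fell 2.40-fold (log2 fold change -1.26, SE 0.171, adjusted p = 0.00722). CDC25A, a phosphatase that activates CDK2, counted 727, 1407 and 722 reads in A427 and 887, 1558 and 812 in HCC15. It was highest with siRNA 2 in each line and rose 1.87-fold (log2 fold change 0.90, SE 0.148, adjusted p = 0.012). CDC27, a subunit of the complex that marks B-type cyclins for destruction, fell by 1.27 on the log2 scale (adjusted p = 0.00852). Near-identical pseudogene copies may make the counts of CDC27 uncertain, which was not examined. These calls did not pass without the HCC15 control, where few genes of any kind passed. That of CDC25A also did not pass without the A427 control or A427 siRNA 2. No gene of the CDK partner and CDK inhibitor lists passed with siRNA 2.

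With siRNA 4, 2 of the 68 rose and 4 fell (8.82%, beside 12.5% of all genes, with a median of 0.06 beside -0.0052). Both that rose were E2F factors: E2F3, an activator of cell cycle genes (log2 fold change 0.92, SE 0.162, adjusted p = 0.0103), and E2F4, mainly a repressor (0.71, SE 0.13, adjusted p = 0.0116). E2F4 also rose with siRNA 2 (0.55, adjusted p = 0.0404). Cyclin F, CCNF, a subunit of a ubiquitin ligase, fell by 0.67 on the log2 scale (SE 0.135, adjusted p = 0.0172), and CDKN1B, the p27 inhibitor, fell by 0.59 (SE 0.141, adjusted p = 0.0314). The calls of E2F3, CCNF and CDKN1B did not pass without the A427 control (adjusted p from 0.073 to 0.265), the HCC15 control (0.17 to 0.297) or HCC15 siRNA 4 (0.0913 to 0.226). Those of E2F4 did not pass without the A427 control, the HCC15 control or a library of the siRNA in question in A427 (0.052 to 0.405), and that with siRNA 2 also not without HCC15 siRNA 2 (0.15) or without the filter on low counts (0.0504). No gene of the cyclin turnover, CDK partner and CDK phosphorylation lists passed with siRNA 4.

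Between siRNA 4 and siRNA 2, 9 of the 68 were higher and 5 lower (20.6%, beside 16.5% of all genes, with a median of -0.06 beside 0.0041). FOXM1 was 2.16-fold higher with siRNA 4 (log2 fold change 1.11, SE 0.17, adjusted p = 0.00501) and CDC25B 1.74-fold higher (0.80, SE 0.122, adjusted p = 0.00495). CDC25A was 1.88-fold lower (-0.91, SE 0.148, adjusted p = 0.00604). These 3 passed with each library left out.

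For each member the genes with the most similar response were found over the 4 libraries with LGR6 siRNA, as the smallest root mean square difference in log2 ratio to control among 9805 expressed genes. The nearest to CDK6 was CYP24A1, at 0.121, and to CCNE2 NDFIP2, at 0.132. The genes closest to CCNA2 were TMEM107 and ATRAID, at 0.0535 and 0.0536. Nearest to CCND1 was STAG1, at 0.0429, to CDK4 PPT2, at 0.034, and to CCNB2 SELENBP1, at 0.0285. For CCND2 the nearest gene, TNFRSF21, lay at 0.192, a distance that says little. CCND2 had 0.494 to 1.29 CPM in HCC15, where the 0.5 CPM added before taking logs shrinks its ratios. The genes compared averaged 10 CPM or more. All these matches are descriptions over 4 libraries that share 2 control libraries.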

How the data were processed

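RNA sequencing covered 6 libraries, 1 per line and siRNA, grouped by the labels' titles and treatments. Per the submitters' processing notes, FastQC 0.11.1, STAR 2.5.3a and RSEM 1.3.3 were used with hg19; neither annotation nor strand setting is named there. The authors deposited expected counts as RSEM estimates them, which need not be whole (5.75% to 6.29% of values were not) and were rounded to whole reads here. The TPM values are as deposited by the authors and serve for levels between genes. Promoter sequences and coordinates are from RefSeq on GRCh38.p14, another build than that of the counts, and overlapping genes were looked up in GENCODE on GRCh38.

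A gene was tested if 2 or more of the 6 libraries held 10 or more of its reads (14481 of 23686). edgeR 4.0.16 in R 4.3.3 scaled libraries by TMM and fitted its quasi-likelihood model, with Benjamini-Hochberg adjustment over all tested genes and a threshold of 0.05. Each siRNA comparison and HCC15 against A427 came from line plus siRNA (2 residual degrees of freedom), silencing from line plus arm (3), and the difference between the lines from line by arm (2). By the labels, a siRNA number stands for 1 reagent used in A427 and HCC15 alike, which pairs the samples: the siRNA 4 minus siRNA 2 difference correlated at 0.594 between the lines across genes, which are not independent. Ratios to control used TMM-scaled reads, with exact 95% counting intervals. Likeness used log2 of CPM plus 0.5 over genes averaging 10 CPM or more. No library was a duplicate (chi-square per degree of freedom of 57 or more for any pair).

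The members, gene lists and tests were chosen with earlier results of these data known. All members are named; of each list, up to 4 members past the threshold with the largest change in a comparison could be named, and for each member the 2 most similar genes. Alternatives were DESeq2 size factors, no filter, DESeq2 1.42.0 and limma 3.58.1 on log2 of TPM plus 1 or 0.1 (13569 genes). Each library was also left out in turn, and for silencing the siRNA terms of the line plus siRNA fit were averaged. The fits were also run on simulated counts, whose outcome is not given here and is not used as support.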

Additional observations from a re-analysis of the deposited data

How the results depend on the processing

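With no replicate of any line and siRNA, each left-out library costs a residual degree of freedom. Calls over all genes numbered 1104 for siRNA 2 against control, and 678 in limma on log2 of TPM plus 0.1, with 4 to 1341 when a library was left out (4 without the HCC15 control). For siRNA 4 against control they numbered 1814, and 1145 in that limma fit, with 118 to 2075 when a library was left out (118 without the HCC15 control). For siRNA 4 against siRNA 2 they numbered 2395, with 646 (without HCC15 siRNA 4) to 2126, and for HCC15 against A427 11073, with 9555 to 10653. Silencing across both lines had 0 calls, DESeq2 387 and limma 1 with either pseudocount. The average of the siRNA terms had 1298, in which CDK6 and CCNE2 passed, and it changed no other call of the 10 genes. The difference between the lines had 0 calls in each fit. With siRNA 2, 38.9% of calls were higher, against 51.2% in limma on log2 of TPM plus 1 and 49.3% with 0.1; between the siRNAs these were 46.6%, 35.8% and 35.2%. Signs turned for small values. CCNB2 with siRNA 2 was 0.022 in limma with either pseudocount, and CCNE1 between the siRNAs was -0.0070 with a pseudocount of 1 and -0.0062 with 0.1. Over left-out libraries, ranges crossed 0 for CDK6 between the lines (-0.27 to 0.097) and in the difference between the lines (-0.94 to 0.10), for CCND3 (-0.65 to 0.29), CCNB1 (-0.093 to 0.22) and CCNB2 (-0.094 to 0.0056) with siRNA 2, for CCND3 (-0.935 to 0.0053) and CCNE1 (-0.11 to 0.30) between the siRNAs, and for CCNA2 under silencing (-0.355 to 0.042). The cause was not tested.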
